A study of Mus musculus with 6 samples.

Results

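The mitochondrial genome of the mouse encodes the RNAs described here, which were taken as the rows of the deposited gene table with the names mt-Rnr1, mt-Rnr2, mt-Nd1, mt-Nd2, mt-Co1, mt-Nd4, mt-Nd5 and mt-Cytb. These are 8 of 24935 genes in the table, and 8 of the 17 mitochondrially encoded genes that the table lists among 37 annotated. The other 9 are 7 mRNAs and 2 tRNAs. RNA was measured in the left hippocampus of C57BL/6 mice at P14 (P for postnatal day), with 3 libraries from air-exposed mice and 3 from hyperoxia-exposed mice. The hyperoxia-exposed pups were kept with their dams in 85% oxygen from P2 to P14 and the air-exposed pups in room air over the same days, and no genotype other than the strain was given for either group. Pups of both sexes were exposed, and the sex of each animal did not enter the comparison. A strand-specific kit with polyA selection was used for the libraries, so a mitochondrial RNA could enter a library through its A tail. The titles name a separate animal for each library, but the numbers 1 to 3 used below are those of the table's columns and not of the animals. Every direction given here follows the group named in the columns of the deposited table. The sources of the study do not give the same direction for every gene, and which is right could not be settled from the files. If the column names were exchanged, the sign of every difference and the words lower and higher would reverse, and the sizes would stay.

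The genes of mitochondrial DNA are transcribed from both strands as long precursors that run through many genes, and the tRNAs that lie between most of the mRNAs and rRNAs mark the places where the precursor is cut. Most of the mRNAs then receive a short A tail, which in several of them completes a stop codon that the DNA encodes only in part. The mRNAs encode subunits of respiratory chain complexes I, III and IV and of ATP synthase, and mt-Rnr1 and mt-Rnr2 are the small-subunit and large-subunit rRNAs of the mitochondrial ribosome.

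All 8 RNAs are annotated on the plus strand of the mitochondrial genome (GRCm38, GENCODE M21). In order they are mt-Rnr1 at chrM:70-1024, mt-Rnr2 at chrM:1094-2675, mt-Nd1 at chrM:2751-3707, mt-Nd2 at chrM:3914-4951, mt-Co1 at chrM:5328-6872, mt-Nd4 at chrM:10167-11544, mt-Nd5 at chrM:11742-13565 and mt-Cytb at chrM:14145-15288. Each is annotated as a single exon that is the whole gene, and the annotated mRNAs end at a stop codon or its first base. An RNA can run past its annotated end, and where the A tail of each begins was not measured. The last 30 bases of each annotated gene are shown because a stop codon, or part of it, lies there in the mRNAs. They were read from the GENCODE M21 transcripts, 5′ to 3′, and capitals mark the stop codon, or the single base of a stop codon that the tail has to complete.
mt-Rnr1: aagcatactggaaagtgtgcttggaataat
mt-Rnr2: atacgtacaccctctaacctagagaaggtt
mt-Nd1: tttacagcgggagtaccaccatacataTAG
mt-Nd2: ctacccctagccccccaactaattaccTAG
mt-Co1: gaggaaccaacctatgtaaaagtaaaaTAA
mt-Nd4: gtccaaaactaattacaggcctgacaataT
mt-Nd5: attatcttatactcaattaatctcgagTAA
mt-Cytb: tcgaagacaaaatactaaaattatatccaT
Of the 6 mRNAs, mt-Nd1, mt-Nd2, mt-Co1 and mt-Nd5 end in a whole stop codon, and mt-Nd4 and mt-Cytb end in a single T. The 2 rRNAs have no stop codon and end in the bases shown. The longest run of A inside each of the 8 RNAs was between 5 and 8 bases. The longest of these runs is in mt-Nd2 at chrM:4044-4067, with the run in capitals and 8 bases on each side.
mt-Nd2: taatcaacAAAAAAAAcccacgat

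Each value is a gene's read count scaled by the authors with a size factor for the library, called a normalized read count below. The reads on genes recovered from them were between 34976005 and 38746972 in the air libraries and between 30384052 and 38045901 in the hyperoxia libraries. Hyperoxia library 2 had the lowest depth and stood apart from both other hyperoxia libraries on the second principal component, which held 19.53% of the variance (38.7 against -5.09 and -22.6). Hyperoxia library 3 had a summed normalized read count of 8483 over 9 choroid plexus markers, against 661 to 1629 in the other 5 libraries. All 9 markers of hippocampal neurons were above 0 in every library, and 4 of the 9 fell in hyperoxia, where 15.6% of all genes tested were called lower (limma, described below). The sum over 7 oligodendrocyte markers was 216995 to 329682 in air and 148914 to 181915 in hyperoxia, and 6 of the 7 fell, against the same 15.6%. The part of these cell types and of library depth in the values below was not tested, and in bulk RNA fewer cells of a type and less RNA per cell cannot be told apart.

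Mitochondrial RNAs had the highest normalized read counts in every library. Among all genes, mt-Co1 ranked highest in each of the 6 libraries, followed in each by mt-Cytb and then mt-Nd1. The lowest rank of any of the 8 was 11, for mt-Rnr1 in hyperoxia library 3. Per kilobase of transcript, the mean normalized read count in air was 663346 ± 14330 for mt-Co1 (SD, n = 3), 592773 ± 37389 for mt-Cytb, 489186 ± 20057 for mt-Nd1 and 292416 ± 12844 for mt-Nd2. It was 239574 ± 17175 for mt-Nd4, 227970 ± 12216 for mt-Rnr1, 177908 ± 5273 for mt-Nd5 and 117637 ± 12540 for mt-Rnr2. In this order, the libraries of neighbouring genes overlapped only between mt-Nd4 and mt-Rnr1. In hyperoxia the order was the same except that mt-Nd1, at 405623 ± 97999 per kilobase, stood above mt-Cytb, at 401704 ± 82385. The libraries of these neighbours overlapped in hyperoxia, as did those of every other pair of neighbours except mt-Cytb and mt-Nd2. The values per kilobase used the whole length of each gene. Of the sequence windows described below, 61.5% for mt-Nd4 and 39.8% for mt-Co1 were also found in nuclear transcripts. For the rest of the 8 the share was at most 5.71%. Whether reads from shared windows were counted is not known, so both orders are of counted reads and not of RNA levels.

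The question of the comparison was which hippocampal RNAs differ after hyperoxia. By the column names, of the 8 mitochondrial RNAs, mt-Rnr1, mt-Nd2, mt-Cytb and mt-Nd5 were lower in hyperoxia-exposed mice, with changes of the mean from -36.7% for mt-Rnr1 to -24.0% for mt-Nd5. None of the 8 was higher, and mt-Rnr2, mt-Nd1, mt-Co1 and mt-Nd4 did not pass the test. The test was limma with a mean-variance trend on log2(normalized read count + 1), hyperoxia minus air, with Benjamini-Hochberg adjustment over all 17778 genes tested and a threshold of 0.05. All 8 RNAs passed the filter on low values, a mean of at least 10. It called 4 of the 8 lower, against 15.6% of all genes tested that were called lower, 14.9% called higher and 30.5% called in either direction. The air and hyperoxia libraries did not overlap for the same 4 RNAs, against 23.8% of all genes tested that lay lower in hyperoxia without overlap and 46.1% that did not overlap in either direction. On the recovered reads, the quasi-likelihood test of edgeR and the Wald test of DESeq2 each called 4 of the 8 lower, against 15.3% and 15.1% of all genes. With each library scaled by its total of gene reads, limma called 3 of the 8 lower, against 11.1% of all genes. The 8 log2 changes were all below 0 with a median of -0.41. Over all genes tested, 50.7% were below 0 and the median was -0.01. The 8 RNAs come from shared precursors, so they are not 8 independent observations.

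**Figure D1:**
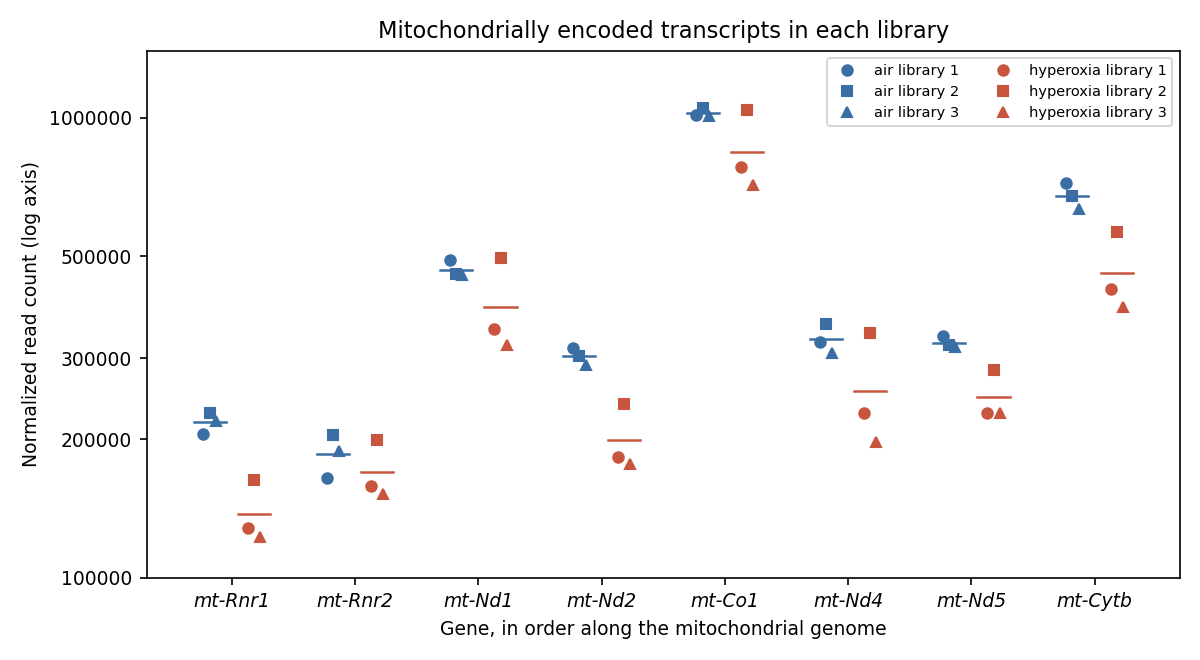
Normalized read count (vertical log axis) of the 8 mitochondrial RNAs, ordered along the mitochondrial genome, in the 3 air libraries (blue) and the 3 hyperoxia libraries (red). Horizontal lines are group means, and the symbol shape gives the library number; hyperoxia library 2 (red square) is the highest hyperoxia library for all 8 RNAs, and the groups part for mt-Rnr1, mt-Nd2, mt-Nd5 and mt-Cytb.

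The rRNAs lie next to each other at the start of the plus-strand transcript, and they differed in their response. mt-Rnr1, the small-subunit rRNA, had normalized read counts of 205284, 228429 and 219421 in the air libraries and of 128246, 162813 and 122382 in the hyperoxia libraries, each in the order 1 to 3, as throughout. All 3 hyperoxia libraries lay below the lowest air library, and mt-Rnr1 fell by 0.67 on the log2 scale (SE 0.13, limma adjusted p = 0.0048). It was called lower under all 18 alternative settings, with log2 changes from -0.80 to -0.45. mt-Rnr2, the large-subunit rRNA, had 164962, 204314 and 189027 in air and 158032, 199428 and 152437 in hyperoxia. These groups overlapped, with hyperoxia library 2 above 2 of the air libraries, and the log2 change was -0.14 (SE 0.14, 95% interval -0.44 to 0.17, limma adjusted p = 0.47).

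The mRNAs for complex I, the NADH dehydrogenase that passes electrons to ubiquinone, were split in the same way. mt-Nd2, a membrane subunit of its proton-pumping arm, had 316453, 304306 and 289824 normalized reads in air and 183220, 238406 and 176773 in hyperoxia. The groups did not overlap, and mt-Nd2 fell by 0.62 on the log2 scale (SE 0.14, limma adjusted p = 0.0088). mt-Nd5, another membrane subunit of that arm, had 335482, 320459 and 317569 in air and 228824, 283730 and 227800 in hyperoxia. Its groups did not overlap either, and it fell by 0.40 (SE 0.13, limma adjusted p = 0.037), which was called under 9 of the 18 alternatives. Leaving out any library but hyperoxia library 2 ended the call of mt-Nd5, with log2 changes from -0.42 to -0.35 and adjusted p from 0.0739 to 0.135.

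The complex I mRNAs mt-Nd1 and mt-Nd4 overlapped between the groups because hyperoxia library 2 lay within or above the air range. mt-Nd1, whose protein joins the membrane arm to the arm that holds the redox centres, had 490292, 457962 and 456199 in air and 347667, 495413 and 321463 in hyperoxia. Its log2 change was -0.30 (SE 0.17, 95% interval -0.68 to 0.09, limma adjusted p = 0.21). mt-Nd4, a membrane subunit of the pumping arm, had 325750, 355686 and 308963 in air and 228328, 340722 and 197022 in hyperoxia, with a log2 change of -0.41 (SE 0.19, 95% interval -0.83 to 0.02, limma adjusted p = 0.13). For both RNAs, hyperoxia libraries 1 and 3 lay below all 3 air libraries. Without hyperoxia library 2 the log2 change was -0.49 for mt-Nd1 (limma adjusted p = 0.00359) and -0.64 for mt-Nd4 (limma adjusted p = 9.39e-04). Without hyperoxia library 3 it was -0.17 for mt-Nd1 (limma adjusted p = 0.463) and -0.24 for mt-Nd4 (limma adjusted p = 0.319). Leaving out hyperoxia library 2 was the only 1 of the 18 alternatives under which either was called.

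mt-Cytb, the mRNA for cytochrome b and the one subunit of complex III that mitochondrial DNA encodes, had 720995, 677955 and 635449 normalized reads in air and 424847, 566229 and 387572 in hyperoxia. The groups did not overlap, and mt-Cytb fell by 0.58 on the log2 scale (SE 0.17, limma adjusted p = 0.026). It was called under 12 of the 18 alternatives, and the call ended when any library but hyperoxia library 2 was left out, with log2 changes from -0.62 to -0.47 and adjusted p from 0.0557 to 0.0972. mt-Co1, the mRNA for the catalytic subunit of complex IV (cytochrome c oxidase), had 1016289, 1050016 and 1008305 in air and 781460, 1038899 and 715751 in hyperoxia. Hyperoxia library 2 lay between the air libraries and the others below them, and the log2 change was -0.30 (SE 0.17, 95% interval -0.68 to 0.09, limma adjusted p = 0.22). Without hyperoxia library 2 it was -0.45 (limma adjusted p = 0.0122), and without hyperoxia library 3 it was -0.19 (limma adjusted p = 0.449). mt-Co1 was called under 1 of the 18 alternatives, the one without hyperoxia library 2.

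**Figure D2:**
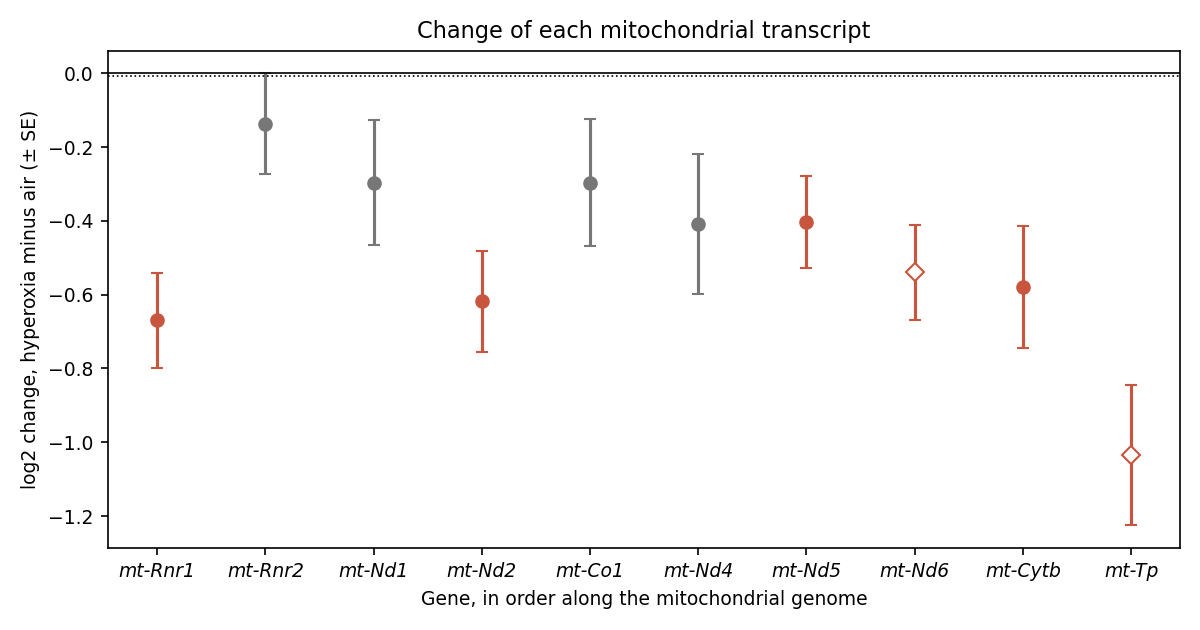
Log2 change of the normalized read count, hyperoxia minus air, with its SE (vertical axis) for mitochondrial RNAs with a mean above 1000 in air, ordered along the genome. Filled symbols are the 8 RNAs described, open symbols the others; circles lie on the plus strand and diamonds on the minus strand; red marks a limma adjusted p under 0.05, and the dotted line is the median of all genes tested (-0.01). The called changes run from -0.40 for mt-Nd5 to -1.04 for mt-Tp and are interspersed with uncalled ones along the genome.

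The number of called RNAs rested on single libraries. Without hyperoxia library 2, 7 of the 8 were called lower, all but mt-Rnr2, against 22% of all genes tested in that comparison. Without any 1 of the other 5 libraries, 2 of the 8 were called lower, against 1603 to 2606 of the 17778 genes tested.

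Shares of the reads do not depend on the size factors. The 8 RNAs together held 9.80%, 10.01% and 9.54% of the reads on genes in air and 7.38%, 9.67% and 6.81% in hyperoxia. The mean share was 9.78% ± 0.235 (SD, n = 3) in air and 7.95% ± 1.52 in hyperoxia, a difference of -1.83 percentage points, by the column names, with groups that overlapped, since hyperoxia library 2 exceeded air library 3. Without hyperoxia library 2 the difference was -2.69 percentage points, and without hyperoxia library 3 it was -1.26. The 6 mRNAs held 8.66% ± 0.227 in air and 7.04% ± 1.39 in hyperoxia, and the 2 rRNAs 1.12% ± 0.0956 and 0.906% ± 0.129. The 95% Wilson interval of a single RNA's share in a library was at most 0.00609 percentage points to either side. This interval covers counting error only, and the spread between libraries was far wider.

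Each RNA's share was compared by a two-sided exact permutation test of the difference of means, 8 comparisons in all, which cannot go below p = 0.1 with 3 libraries against 3. mt-Cytb, with the widest difference, had shares of 1.98%, 1.88% and 1.77% in air and 1.26%, 1.65% and 1.15% in hyperoxia. mt-Rnr1 had 0.563%, 0.635% and 0.611% in air and 0.381%, 0.473% and 0.362% in hyperoxia. These 2 RNAs, mt-Nd2 and mt-Nd5 did not overlap between the groups and reached the smallest p that the exact test allows, 0.1. The other 4 had an exact p between 0.4 and 0.9. For mt-Rnr2 the share was 0.452%, 0.568% and 0.526% in air and 0.470%, 0.580% and 0.451% in hyperoxia, and it was the RNA with the smallest difference, -0.0154 percentage points.

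**Figure D3:**
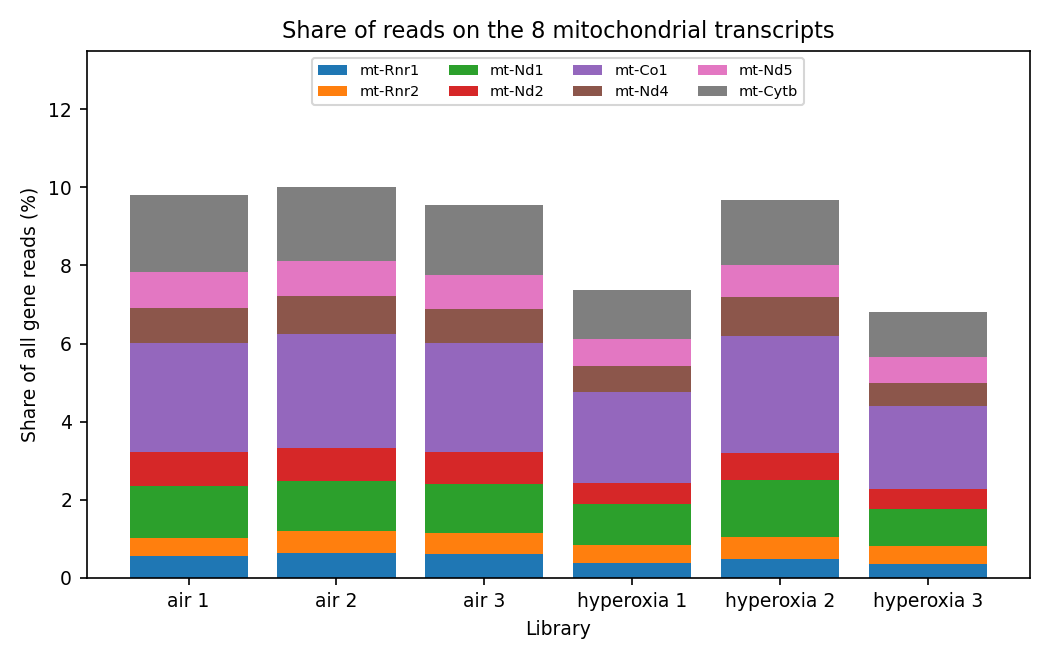
Share of all reads on genes (vertical axis, percent) taken by each of the 8 mitochondrial RNAs in each library, stacked. The sum is 9.54% to 10.01% in the air libraries, 7.38% and 6.81% in hyperoxia libraries 1 and 3, and 9.67% in hyperoxia library 2.

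The ratios of the RNAs to one another within a library depend on neither the size factors nor the total, and in several of them hyperoxia library 2 lay with the other hyperoxia libraries. The ratio of mt-Rnr1 to mt-Rnr2 reads was 1.24, 1.12 and 1.16 in air and 0.812, 0.816 and 0.803 in hyperoxia. The small-subunit rRNA thus had more reads than the large-subunit rRNA in every air library and fewer in every hyperoxia library. The ratio of mt-Co1 to mt-Cytb was 1.41, 1.55 and 1.59 in air and 1.84, 1.83 and 1.85 in hyperoxia. The ratio of mt-Nd1 to mt-Nd2, complex I mRNAs that are neighbours in the list of 8, was 1.55, 1.505 and 1.57 in air and 1.90, 2.08 and 1.82 in hyperoxia. In all 3 ratios the hyperoxia libraries lay on the same side of every air library. The ratio of mt-Nd1 to mt-Co1, in contrast, was 0.482, 0.436 and 0.452 in air and 0.445, 0.477 and 0.449 in hyperoxia, and the groups overlapped.

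Of the 28 ratios between pairs of the 8 RNAs, 14 had no overlap between the groups. Of the single genes tested, 46.1% had none in either direction, and the share for ratios between pairs of other genes was not determined. The 28 ratios are built from the same 8 values per library, so they are not independent, and their count is a description. After the ratios had been seen, the RNAs were put in sets of 3: mt-Rnr1, mt-Nd2 and mt-Cytb in the one, and mt-Rnr2, mt-Nd1 and mt-Co1 in the other. All 9 ratios across these sets parted the groups, with mean ratios that differed by 0.28 to 0.54 on the log2 scale. None of the 6 ratios within a set did. As the sets were chosen from these values, this is a description and was not tested. Along the genome the sets are interspersed, since mt-Rnr1 lies before mt-Rnr2 and mt-Nd1, and mt-Nd2 lies between mt-Nd1 and mt-Co1. mt-Nd4 and mt-Nd5 belonged to neither set, and their ratio to each other ranged from 0.971 to 1.11 in air and from 0.865 to 1.201 in hyperoxia. The ratio of the summed rRNA to the summed mRNA reads was 0.129 ± 0.0119 in air and 0.129 ± 0.00675 in hyperoxia.

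**Figure D4:**
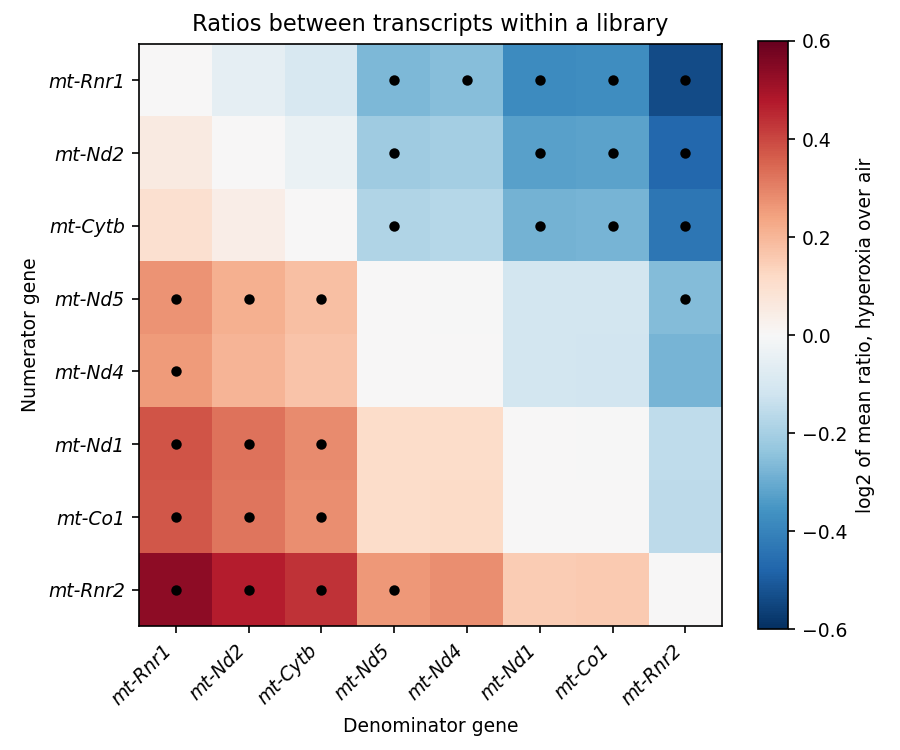
Log2 of the mean read ratio in hyperoxia over that in air (colour scale) for each numerator gene (rows) and denominator gene (columns) among the 8 mitochondrial RNAs. A black dot marks a ratio whose 3 air and 3 hyperoxia libraries did not overlap, which holds for 14 of the 28 pairs; each pair appears above and below the diagonal with opposite sign.

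Expressed as a part of the 8 summed, mt-Cytb made up 20.2%, 18.8% and 18.6% in air and 17.1%, 17.0% and 16.8% in hyperoxia, so that all hyperoxia libraries lay below all air libraries. mt-Nd2 made up 8.59% ± 0.226 in air and 7.41% ± 0.258 in hyperoxia, and mt-Rnr1 6.17% ± 0.368 and 5.13% ± 0.214, also without overlap. The parts of mt-Co1 (29.0% ± 0.528 and 31.3% ± 0.203), mt-Nd1 (13.3% ± 0.498 and 14.3% ± 0.523) and mt-Rnr2 (5.27% ± 0.574 and 6.33% ± 0.316) were higher in every hyperoxia library. A part of a fixed sum cannot drop without others gaining.

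Among the other 9 mitochondrially encoded genes, mt-Nd6 and mt-Tp are annotated on the minus strand. mt-Nd6, a complex I mRNA at chrM:13552-14070, had normalized read counts of 87675, 88404 and 81350 in air and 51580, 72389 and 54975 in hyperoxia, without overlap. It fell by 0.54 on the log2 scale (SE 0.13, limma adjusted p = 0.012), and the call ended without air library 1, air library 2 or hyperoxia library 1 (adjusted p from 0.0539 to 0.0572). Its ratio to mt-Nd2 was 0.277, 0.291 and 0.281 in air and 0.282, 0.304 and 0.311 in hyperoxia, and the groups overlapped. mt-Tp, the tRNA for proline at chrM:15356-15422, had 5065, 4973 and 4255 in air and 1634, 2493 and 3055 in hyperoxia. It fell by 1.04 (SE 0.19, limma adjusted p = 0.0040) and was called under all 18 alternatives. The gene spans 67 bases, fewer than the 75 bases sequenced per read, and the libraries were selected for polyA. Whether the reads counted for mt-Tp came from the mature tRNA or from longer RNAs over the same bases was not measured. The sources used here do not say whether counting used the strand, so the reads of these minus-strand genes cannot be told apart from reads of the plus-strand transcript over the same bases.

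The remaining mitochondrial genes had almost no counted reads. mt-Co2, the mRNA for a complex IV subunit, had 20.7, 21.4 and 15.4 in air and 57.5, 61.1 and 29.9 in hyperoxia, and rose by 1.27 on the log2 scale (SE 0.31, limma adjusted p = 0.013). mt-Co3, for another complex IV subunit, had 15.1, 12.2 and 13.3 in air and 25.6, 32.8 and 29.0 in hyperoxia, and rose by 1.05 (SE 0.26, limma adjusted p = 0.015). These increases in counted reads were against the direction of the 8 abundant RNAs. Of the sequence windows described below, 99.5% for mt-Co2 and 99.9% for mt-Co3 were also found in nuclear transcripts. Whether the few reads counted for these genes follow the levels of their mRNAs was not tested. Without hyperoxia library 1 the call of mt-Co2 ended (log2 change 1.13, adjusted p = 0.0606), and without air library 2 that of mt-Co3 did (0.98, adjusted p = 0.0573). mt-Atp6, for an ATP synthase subunit, had 36.3 ± 9.18 (SD, n = 3) in air and 52.7 ± 13.6 in hyperoxia (limma adjusted p = 0.16). mt-Atp8, mt-Nd3, mt-Nd4l and mt-Tc had at most 5 reads in any library and were not tested.

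The genes with few reads are those whose sequence is also annotated in the nuclear genome, with the exceptions of mt-Atp8 and the tRNA. Nuclear copies of mitochondrial DNA are pieces that were inserted into chromosomes in the past, and a read that matches both places cannot be assigned to either from its sequence. The 75-base windows of each mitochondrial rRNA and mRNA were searched in the annotated nuclear transcripts of GENCODE M21. The share of windows found there was 99.5% for mt-Co2, 99.5% for mt-Atp6, 99.9% for mt-Co3, 97.8% for mt-Nd3 and 98.7% for mt-Nd4l. It was 0 for mt-Rnr1, mt-Rnr2, mt-Nd1, mt-Cytb and mt-Nd6. Among the 8 RNAs, 61.5% of the windows of mt-Nd4 and 39.8% of those of mt-Co1 were found in nuclear transcripts, against 5.71% for mt-Nd2 and 1.66% for mt-Nd5. mt-Atp8 had no shared window and at most 5 reads. Nuclear sequence outside annotated transcripts was not searched, and the sources used here do not say how counting treated reads with several matches.

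**Figure D5:**
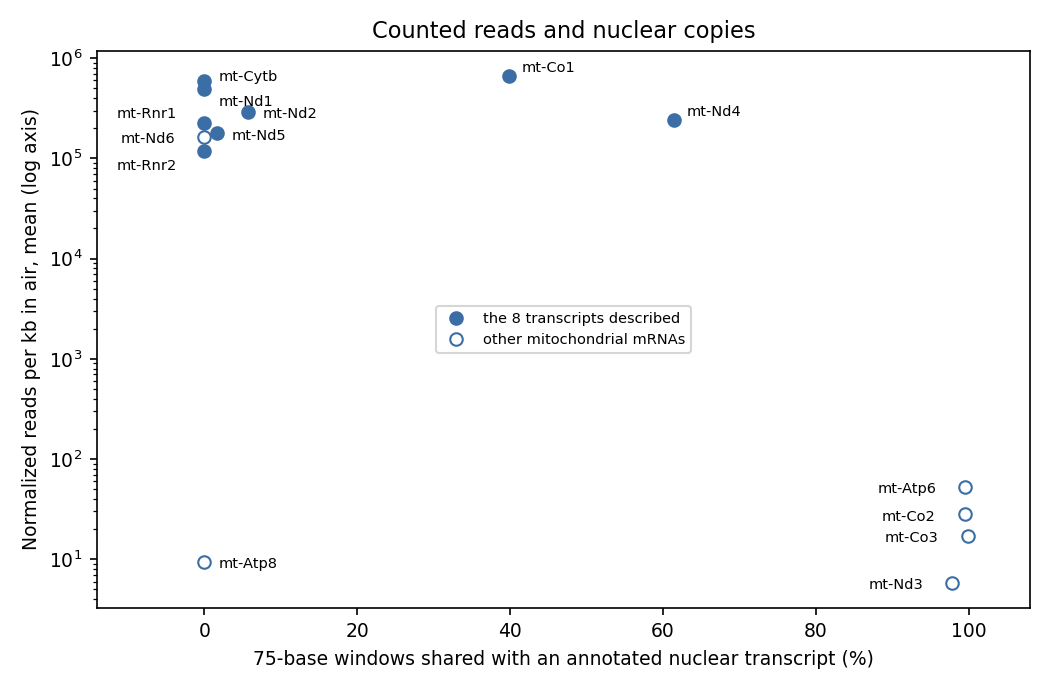
Mean normalized reads per kilobase in air (vertical log axis) against the percent of 75-base windows shared with an annotated nuclear transcript (horizontal axis) for the mitochondrial rRNAs and mRNAs. The 5 mRNAs with over 97% of windows shared had the fewest reads together with mt-Atp8; mt-Nd4l, one of these 5, was at 0 in air and is not drawn.

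Most shared windows lay in a run of pseudogenes on the minus strand of chromosome 1, between positions 24611535 and 24616197 (GRCm38). Bases 1 to 876 of mt-Nd4 are identical to Gm28439, which had normalized read counts of 325 ± 19.7 in air and 289 ± 2.15 in hyperoxia (limma adjusted p = 0.21). Bases 1054 to 1545 of mt-Co1 align to Gm29216 with 6 mismatches, which are T1056A, C1057T, A1059G, A1060G, C1062A and A1066T, counted from 1 at the 5′ end of mt-Co1 with the mt-Co1 base first. Gm29216 had 445 ± 20.8 in air and 386 ± 66.3 in hyperoxia (limma adjusted p = 0.23). The start of this alignment, which was made without gaps, is shown because all 6 mismatches lie in it and the bases after them are the same in both genes. Whether the bases up to the last mismatch belong to the copied stretch was not tested. The sequences are bases 1054 to 1081 of mt-Co1 and the aligned bases of Gm29216, and the capital marks the last mismatch.
mt-Co1: ggtctaaccggaAttgttttatccaact
Gm29216: ggattggcaggaTttgttttatccaact
The highest value of either copy in any library was 467 normalized reads. Gm28437, which is identical to mt-Co3 over 783 bases, had 6172 normalized reads in air library 1 and 214 to 394 in the other 5 libraries (limma adjusted p = 0.48). Gm10925, identical to mt-Atp6 over 678 bases, rose by 0.41 on the log2 scale (limma adjusted p = 0.038), and Gm10222, identical to mt-Nd4l over 294 bases, fell by 0.69 (limma adjusted p = 0.031). The copies of mt-Co2 (Gm28661 and Gm13341), mt-Nd3 (Gm28438), mt-Co1 (Gm13340) and mt-Nd2 (Gm13339) did not pass the test.

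The 8 RNAs had a GC content of 35.4% to 39.9%, against a median of 49.5% over the genes tested. After correction of each library for GC content and transcript length, all 8 log2 changes were below 0 and 4 were called lower. In that setting 3523 of 17735 genes tested were called lower, against 2782 of 17778 without the correction.

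Nuclear genes supply the enzymes that make, cut and translate these RNAs and most subunits of the same complexes. In 8 lists of such genes, 47 of 181 tested genes were called (26.0%, against 30.5% of all genes tested), of which 39 fell and 8 rose, with a median log2 change of -0.12. By direction, 15.6% of all genes tested were called lower and 14.9% higher. With each library scaled by its total of gene reads, 25 fell and 16 rose, against 1975 and 3754 of 17778 genes tested. Without hyperoxia library 2, 71 fell and 9 rose, against 3918 and 3838 of the 17778. Without air library 1, 21 fell and 4 rose, against 1603 and 1445. The counts were the same without air library 2, against 1609 and 1478.

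Of 17 genes for transcription and replication of mitochondrial DNA, 6 fell and none rose, against 15.6% of all genes tested that were called lower. They include Tfb2m, a transcription initiation factor, which had 734, 716 and 700 normalized reads in air and 504, 503 and 476 in hyperoxia and fell by 0.54 on the log2 scale (SE 0.08, limma adjusted p = 0.0017). Ssbp1, the mitochondrial single-stranded DNA-binding protein, fell by 0.50 (adjusted p = 0.0026), and Mterf3, a factor of the MTERF family, by 0.42 (adjusted p = 0.0050). Polrmt, the mitochondrial RNA polymerase, had a log2 change of -0.18 (adjusted p = 0.12), and Tfam, which packs and helps transcribe mitochondrial DNA, of 0.18 (adjusted p = 0.10). Both were chosen for mention after their values were seen.

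Of 28 genes for processing, modification and turnover of mitochondrial RNA, 2 rose and 2 fell, against 14.9% and 15.6% of all genes tested. Slirp, an RNA-binding protein that forms a complex with the Lrpprc protein on mitochondrial mRNAs, had 209, 233 and 192 normalized reads in air and 85.7, 104 and 87.8 in hyperoxia. By the column names it fell by 1.18 on the log2 scale (SE 0.14, limma adjusted p = 7.2e-04). The sources of the study differ on the direction of Slirp, and also on that of Mrps21, counted below among the ribosomal genes that fell. As stated at the outset, the direction given for every gene here rests on the column names. Lrpprc itself had 1999, 2096 and 1965 in air and 2377, 2307 and 2504 in hyperoxia, and rose by 0.25 (SE 0.07, limma adjusted p = 0.025). The groups did not overlap for either gene, and the partners moved in opposite directions. Mrm1, an rRNA methyltransferase, rose by 0.47 (adjusted p = 0.034), and Fastk, which gives its name to the FASTK family of mitochondrial RNA-binding proteins, fell by 0.41 (adjusted p = 0.019).

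Of 79 tested genes named for proteins of the mitochondrial ribosome, which assembles on mt-Rnr1 and mt-Rnr2, 20 fell and 4 rose. The shares called over all genes tested were 15.6% lower and 14.9% higher, also for the translation factors below. Of the 79, Mrpl23-ps1 and Mrpl48-ps are pseudogenes, and Mrpl48-ps is 1 of the 4 that rose. Mrps26 of the small subunit fell by 0.70 (limma adjusted p = 5.8e-04), and Mrpl12 and Mrpl39 of the large subunit by 1.13 (adjusted p = 0.0010) and 0.51 (adjusted p = 0.0016). Mrpl27 rose by 0.48 (adjusted p = 0.0043), Mrps6 by 0.57 (adjusted p = 0.023) and Mrpl16 by 0.36 (adjusted p = 0.024). Of 11 translation factors, Mtif2, Mtif3 and Tufm fell, by 0.29 to 0.35 on the log2 scale, and none rose.

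None of the 7 nuclear-encoded core subunits of complex I was called by limma, edgeR or DESeq2, and none had an unadjusted p under 0.05, with a median log2 change of 0.04. For this and the counts below, limma called 30.5% of all genes tested, 15.6% lower and 14.9% higher. Of the 4 complex I mRNAs among the 8 mitochondrial RNAs, 2 were called lower. Of 9 nuclear genes of complex III, the complex of mt-Cytb, 3 fell: Uqcrb by 0.77 (limma adjusted p = 9.7e-04), Uqcrh by 0.50 (adjusted p = 0.0016) and Uqcr11 by 0.66 (adjusted p = 0.0028). Of 11 of complex IV, the complex of mt-Co1, Cox8a fell by 0.71 (adjusted p = 0.0022) and Cox5a by 0.41 (adjusted p = 0.026). Among 19 genes of mitochondrial biogenesis and mass, Ppargc1a, a coactivator of mitochondrial biogenesis, rose by 0.48 (adjusted p = 0.0032) and Vdac3, an outer membrane channel, by 0.36 (adjusted p = 0.0041). Timm23 (by 0.63), Esrra (by 0.32) and Hspa9 (by 0.21) fell.

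The nuclear genes whose log2 values followed the mean of the 8 standardized RNAs most closely over the 6 libraries were Gm3235, Selenow, Pigu, Macrod1 and Rpl36-ps2, with Pearson r from 0.996 to 0.999. The libraries fall in 2 groups and share their depth, so these values are a description. Selenow, a small selenoprotein and the most abundant of the 5, had 28277, 30111 and 28100 normalized reads in air and 21064, 27772 and 20065 in hyperoxia. Selenow was picked for following the mean of the 8, so it is part of that choice that hyperoxia library 2 was its highest hyperoxia library. The log2 change of Selenow was -0.34 (limma adjusted p = 0.053). Without hyperoxia library 2 it was -0.49 (adjusted p = 2.31e-04), and this difference too goes with the choice.

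Replication-dependent histone genes make mRNAs that normally end without an A tail, and whether the reads counted for them here came from such mRNAs was not measured. Of 29 such genes, 10 passed the filter on low values and 5 of these fell, with none higher, against 15.6% of all genes tested that were called lower, and the summed normalized read count was 3437 to 3967 in air and 2240 to 2839 in hyperoxia. The part of polyA selection in the mitochondrial values was not tested.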

How the data were processed

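The authors deposited 1 table with a signal per gene and library, read counts divided by a size factor. Per the labels, the submitters' processing notes name FastQC, STAR (2.5.3a), HTSeq and DESeq2. Genome build, annotation and strand use in counting are not given in the sources here. Whole reads were recovered by dividing by the smallest step of each library, which left 100% of values within 0.01 of an integer. A deposited table of the authors' own comparison (log2 fold changes, errors and p-values) was not used. Air and hyperoxia libraries were compared in R 4.3.3 with limma 3.58.1 (mean-variance trend, log2(value + 1)) for genes with a mean of at least 10. This understates changes of low genes. On recovered reads, edgeR 4.0.16 called 5501 genes and DESeq2 1.42.0 called 5611, against 5425 by limma. Shares were tested by exact permutation (scipy 1.17.1). Further settings were a pseudocount of 0.5 or 5, a minimum mean of 50 or none, scaling by totals, TMM and quantile normalization, no trend, length and GC correction (mgcv 1.9.3) and leaving out each library. The scripts were tested on simulated data. Of the gene identifiers, 99.7% matched GENCODE M21. Replicate pairs differed by more than sampling noise (chi-square per gene 6.54 to 47.2).

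The members and gene lists were chosen with earlier results of these data known. The rule named the 8 RNAs, every other mitochondrially encoded gene, genes in nuclear copies, up to 3 called genes in each direction per nuclear list by adjusted p, and the 5 nuclear genes most like the 8. Marker lists were read only as sums and counts of calls. Of these, 3 of 7 astrocyte markers rose and 1 fell, 2 of 7 microglial markers rose, 3 of 6 endothelial markers rose and 1 fell, 1 of 9 choroid plexus markers rose, 2 of 8 neuronal markers rose and 3 fell, 1 of 6 erythroid markers rose and 1 fell, and 1 of 6 nuclear-retained RNAs rose and 1 fell. For these lists, 14.9% of all genes tested were called higher and 15.6% lower. The limma p-values set a group difference against a variance between these libraries that was moderated by a trend over all genes tested.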

Additional observations from a re-analysis of the deposited data

How the results depend on the processing

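Of the 8 RNAs, 4 were called by limma, and 3 to 4 under the other pseudocounts, filters, scalings and tests, except quantile normalization, which called 1. That setting gives equal values to genes of equal rank, and mt-Co1, mt-Cytb, mt-Nd1 and mt-Nd2 held the same rank in every library; mt-Rnr2 was 0.18 higher under it (log2, adjusted p = 0.142), the only change of direction among the 8. Leaving out 1 library gave 2 to 7 calls, 7 without hyperoxia library 2. Over all genes tested, 5425 were called, and 3048 to 7756 with 1 library left out. Of the nuclear list genes, 47 were called, and 25 to 80 with 1 library left out. Among the other mitochondrial genes 4 were called, 2 with a mean of at least 50, which removes mt-Co2 and mt-Co3, and 2 to 4 with 1 library left out. Scaling by total gene reads moved the median of all genes to 0.08 on the log2 scale and the calls from 2782 lower and 2643 higher to 1975 lower and 3754 higher, with 3 of the 8 RNAs called lower and mt-Nd5 lost (-0.31, adjusted p = 0.0677). After length and GC correction 3523 genes were lower and 2636 higher. The summed share differed by -1.87 to -1.62 percentage points with another total or the mRNAs alone, and by -2.69 to -1.26 with 1 library left out. With 3 libraries per group the exact test of a share could not pass 0.05, and for these RNAs counting error was far below the spread between libraries. No paired analysis was possible because the replicate numbers in the labels are not shared between the groups and the columns do not name animals.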
